A study of Oncorhynchus mykiss with 12 samples.

Results

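The 100 brightest trout probes of the control head kidney were followed across 12 arrays. They are 100 of 12884 trout probes, 0.776% of them, chosen by their mean level over the 4 control arrays as the highest of all. A level is the log2 processed intensity minus the 75th percentile of that array. The control values thus chose the members, so the control levels, and the brightness of the set itself, are a description. The values of the T3 and PTU arrays were not used in the choice, whereas any comparison with control shares the arrays that made it.

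The study fed juvenile rainbow trout (Oncorhynchus mykiss) for 7 days and read head kidney RNA on a custom trout array, 1 array per pool of 2 fish. The groups were fish given T3 at 20 µg per g of feed (4 pools), fish given PTU at 5000 µg per g of feed (4 pools) and control fish with no agent (4 pools). The T3 and control arrays lay on slide 1 and the PTU arrays on slide 2, so that PTU and slide cannot be told apart. On slide 1 the T3 arrays filled row 2 and the control arrays row 1, so that T3 against control cannot be told apart from slide row. The PTU arrays lay in row 1 of slide 2, so that T3 against PTU differs in both slide and slide row. The slides were also scanned at different times. The labels do not say which aquarium a pool came from, and some of the 12 pools must have shared one, so p-values measure the spread between pools and can be too small.

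In bony fish the head kidney makes blood cells and antibodies, and it also holds the steroid-producing interrenal cells and the catecholamine-producing chromaffin cells. T3 (triiodothyronine) is the thyroid hormone that binds the nuclear thyroid hormone receptors, which switch target genes on or off. PTU (propylthiouracil) blocks thyroid peroxidase and with it the synthesis of thyroid hormone. The RNA was copied from an oligo(dT) primer, which favours messages with a poly(A) tail. In any tissue a small number of abundant messages supplies much of the messenger RNA, and on a 1-colour array such messages give the brightest spots. Brightness also depends on how well a probe binds, so an order of probes by intensity is not an order of messages. The probe IDs are not paired with genes here, so the members are named by ID, their functions are not given and the tissue was not checked against markers.

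The members lay between 6.39 and 8.33 in the control mean, with a median of 7.23. On the linear scale this is 83.8 to 322 times the 75th percentile, with a median of 150 times. All 100 were well above background on all 12 arrays and were tested. Their intensities ran from 56000 to 716000 units over all arrays, and none of their spots was saturated. The highest median pixel signal of a member spot reached 86% of the scanner's limit. Of the 1200 member spots, 1097 were brighter than the brightest manufacturer's spike-in on their own array, so the range in which most of them lie had no spike-in standard.

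At the edge of the rule the control levels changed little from probe to probe. The last members were JC008392 at 6.410, JC001728 at 6.403 and JC000546 at 6.388, and the first probes outside were JC008396 at 6.386, JC001954 at 6.385 and JC001670 at 6.381. JC001670 lay higher in the mean of the T3 arrays, at 7.28, and of the PTU arrays, at 6.92, than its control mean.

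The members came as pairs of ID numbers. Among all trout probes, IDs that lie 6442 apart, which splits the numbering into equal parts, had nearly the same level: the median absolute log2 difference was 0.0748 to 0.136 on an array, against 1.98 to 3.04 at a step of 6441 and 2.0 to 3.03 at a step of 6443. The files do not say what such partners share. The 100 members held 51 ID pairs, with both probes of 49 pairs among the members. JC008392 (partner JC001950, rank 109) and JC003606 (partner JC010048, rank 116) were the 2 members without their partner. Within the 49 pairs the median absolute difference on an array was 0.0612, and 91.5% of the differences were under 0.2. The largest, 0.641, was at JC000043 on T3 replicate 1, where its spot was marked as an outlier by the scanner software and was dropped from the fit. With group means removed, the r between partners over the 12 arrays had a median of 0.991 (0.948 to 0.999). Partners stand on distant spots, at least 9.49 grid steps apart, so the pairs repeat a reading within an array. They are not independent members, and a count of members below counts most readings in both probes of a pair.

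The 10 brightest members were 5 complete ID pairs: JC001680 with JC008122, JC008018 with JC001576, JC008117 with JC001675, JC007083 with JC000641 and JC000647 with JC007089. The brightest, JC001680, lay at 8.08, 9.14, 8.76 and 8.2 on the T3 arrays, at 7.98, 8.06, 8.26 and 8.24 on the PTU arrays, and at 8.46, 8.05, 7.84 and 8.97 on the control arrays. Its groups overlapped, and its 4 PTU arrays lay closest together. JC007083 lay at 8.44, 8.9, 9.03 and 7.95 on the T3 arrays, at 7.63, 7.71, 8.69 and 8.1 on the PTU arrays, and at 8.53, 8.12, 7.45 and 9.0 on the control arrays. In all 10 the T3 mean was above the PTU mean by 0.28 to 0.61 on the log2 scale. The adjusted p from limma (Benjamini-Hochberg, all tested probes) lay between 0.891 and 0.969, so that none of these differences passed the threshold of 0.05. With median scaling the T3 mean was above the PTU mean in 10 of the 10. With quantile normalization it was so in 4 of the 10, and with normexp and quantile in 5. Both of these scalings remove a shift shared by the brightest probes and cannot test one.

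As a set, the 100 probes supplied between 32.8% and 44.5% of the summed trout-probe intensity of an array. Their share was 37.9%, 44.5%, 42.8% and 36.8% on the 4 T3 arrays, 34.1%, 36.4%, 37.9% and 36.9% on the 4 PTU arrays, and 39.7%, 32.8%, 34.2% and 43.0% on the 4 control arrays. All but 1 of the T3 and PTU arrays, T3 replicate 2, lay within the control range. The share averaged 40.5 ± 3.73% in T3, 36.3 ± 1.6% in PTU and 37.4 ± 4.74% in control (SD, n = 4 each). In such bulk samples, fewer cells of a type and less RNA per cell cannot be told apart.

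With the summed trout-probe intensity as denominator, none of the differences in share passed the exact permutation test with all 12 arrays. T3 minus control was 3.08 percentage points (two-sided exact permutation test, p = 0.371, adjusted over the 3 comparisons 0.556), and was 1.55 or 4.93 when control replicate 2 or 4 was left out. PTU minus control was -1.11 percentage points (exact permutation p = 0.686, adjusted 0.686), and this sign turned when control replicate 4 was left out, to 0.742 percentage points. T3 minus PTU, the comparison in which neither group chose the members, was 4.19 percentage points (exact permutation p = 0.114, adjusted 0.342). The smallest p that 4 against 4 or 3 against 4 arrays allow is 0.0286, and the T3 minus PTU difference reached it with the manufacturer's control spots in the denominator (4.48 percentage points) and without T3 replicate 4 (5.43 percentage points), unadjusted. The same difference was smallest for the 200 brightest probes, at 2.76 percentage points (exact permutation p = 0.371). The 10 brightest alone gave 7.46 ± 1.33% of the signal in T3, 6.21 ± 1.36% in PTU and 6.81 ± 1.47% in control (SD, n = 4 each), with exact permutation p between 0.257 and 0.543.

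3 arrays, T3 replicate 1, PTU replicate 3 and control replicate 2, stood apart from the other 9 by raised dim probes. The dimmest 20% of the probes deviated there by a median of 1.79 to 2.53 on the log2 scale, against -0.95 to 0.15 on the other 9. Without these 3 arrays the share differed by 2.42 percentage points for T3 minus control, by -3.17 for PTU minus control and by 5.58 for T3 minus PTU, with exact permutation p of 0.6, 0.3 and 0.2, where 3 against 3 arrays allow no p under 0.1.

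The share was lower on arrays with more total signal. The summed trout-probe intensity ran from 39.7 to 104, in units of 1e+06 intensity, over the 12 arrays, and its Pearson r with the share was -0.705 (permutation p = 0.0108) and its Spearman rho -0.832 (permutation p = 0.0013, n = 12). The r was -0.755 without PTU replicates 1 and 2, the arrays farthest from the median total. Within slide 1, which holds the T3 and control arrays, r was -0.817 (exact permutation p = 0.0165) and rho -0.81 (exact permutation p = 0.0218, n = 8). Slide 2 holds too few arrays for a value of its own. Without the 3 arrays above, r was -0.9 (permutation p = 0.00134) and rho -0.917 (permutation p = 0.0012, n = 9). These 3 relations were computed after the values were seen, adjusted p over them was at most 0.0218, and the total is also the denominator of the share. In the same units the total was 48.1, 42.7, 39.7 and 75.9 on the T3 arrays, 104, 103, 43.9 and 73.9 on the PTU arrays, and 54.2, 62.4, 79.2 and 42.0 on the control arrays, and its part in the group differences was not tested.

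On the control arrays, and less so on the T3 arrays, most members deviated from their group mean in the same direction. Their median level was 7.14, 7.51, 7.81 and 7.38 on the T3 arrays, 7.06, 7.24, 7.17 and 7.11 on the PTU arrays, and 7.8, 6.66, 6.95 and 7.61 on the control arrays. The control arrays were far apart: 93 and 94 of the 100 members lay above their control mean on replicates 1 and 4, against 1 and 6 on replicates 2 and 3. In T3, 5 members lay above their group mean on replicate 1 and 75, 84 and 35 on replicates 2, 3 and 4. In PTU, 33, 64, 58 and 64 members did so on the 4 arrays, whose median deviations were small, -0.11 to 0.06.

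By the median SD, the members varied least between the PTU pools, but not under every scaling. The median SD of a member over the 4 pools was 0.422 in T3, 0.199 in PTU and 0.582 in control on the log2 scale. With each array's median over the members subtracted, it was 0.301 in T3, 0.197 in PTU and 0.268 in control, and 45.3% of the within-group variance was left. Without the 3 arrays that stood apart it was 0.315, 0.165 and 0.51 in T3, PTU and control, over 3 pools each. Among the next 100 probes by control rank the median SD was 0.449 in T3, 0.266 in PTU and 0.456 in control. Among the 800 after them it was 0.406, 0.365 and 0.578, and among all trout probes 0.612, 0.622 and 0.636, in T3, PTU and control. Probes share the array, so these are descriptions with no test. The SD of T3 and control members depended on the scaling: with quantile normalization it was 0.211 in T3, 0.244 in PTU and 0.254 in control. That scaling removes shifts shared by the brightest probes, so part of the lower SD in T3 and control is built in.

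Little of the spread between pools was seen between partner spots. The SD between the spots of an ID pair on an array had a median of 0.0495, and by this measure 1.92% of the within-group variance of the members lay between partners. After group means and the array's median over the members were removed, partners still moved together over the arrays with a median r of 0.972 (0.708 to 0.998).

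Individual members differed in how steady they were over the T3 and PTU arrays. The steadiest by the SD within these groups were JC005887, JC005953, JC008110, JC002472 and JC000469, with 0.163 to 0.187. JC005953 lay at 7.77, 7.87, 7.79 and 7.6 on the T3 arrays, at 7.3, 7.57, 7.65 and 7.78 on the PTU arrays, and at 7.86, 6.76, 7.18 and 7.78 on the control arrays. Its T3 and PTU arrays lay between 7.3 and 7.87, and control replicates 2 and 3 lay below all of them. JC008110 lay at 7.05, 7.19, 7.05 and 7.23 on the T3 arrays, at 6.99, 7.43, 6.95 and 7.11 on the PTU arrays, and at 7.42, 6.17, 6.77 and 7.03 on the control arrays. Its T3 and PTU arrays lay between 6.95 and 7.43, and control replicates 2 and 3 again lay below all of them.

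The least steady were JC008043, JC001894, JC008106, JC001601 and JC008336, with 0.545 to 0.59. JC008043 and its partner JC001601 alternated within T3: JC008043 lay at 8.3, 7.01, 8.59 and 7.04 on the T3 arrays, at 7.34, 7.3, 7.23 and 7.51 on the PTU arrays, and at 8.26, 6.89, 7.02 and 7.67 on the control arrays. T3 replicates 1 and 3 were high and replicates 2 and 4 low in both probes, with an SD of 0.825 for JC008043 and 0.762 for JC001601 in T3, against 0.122 and 0.126 in PTU and 0.633 and 0.6 in control. JC008106 lay at 6.35, 7.91, 7.02 and 7.2 on the T3 arrays, at 7.22, 7.07, 6.22 and 6.73 on the PTU arrays, and at 6.51, 6.72, 6.74 and 7.41 on the control arrays.

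Some ID pairs deviated together on the same arrays. After group means and array medians were removed, the r between ID pairs over the 12 arrays had a median of 0.0884, and 41 of 1275 combinations exceeded 0.9. Chains of such combinations joined 29 of the 51 ID pairs into 8 sets. The largest held 9 ID pairs (18 members, among them JC000861, JC000900 and JC001636) with a median r of 0.933. Its members deviated on average by -0.57 on control replicate 1, by 0.57 on T3 replicate 2, by -0.35 on T3 replicate 3 and by -0.33 on PTU replicate 3. A set of 6 ID pairs (12 members, median r 0.908) joined 3 of the brightest pairs, those of JC000641, JC000647 and JC001576, with those of JC000656, JC001728 and JC001894, and deviated by -0.34, -0.39, 0.57 and 0.17 on the PTU arrays. A set of 2 ID pairs, those of JC001601 and JC001607, had r of 0.992 and deviated by 0.68, -0.74, 0.55 and -0.49 on the T3 arrays. The points of such an r share the array, and the sets were formed from the same values.

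The order of the members by group mean was close in the 3 groups. Of the 100, 92 were among the 100 highest probes of the T3 mean and 87 among those of the PTU mean, and 100 and 98 among the 200 highest. All 10 of the brightest stayed among the 10 highest of the T3 mean and 8 among those of the PTU mean. Across the members, Spearman's rho with the control mean was 0.948 for the T3 mean and 0.878 for the PTU mean. Single arrays differed more than group means: rho between arrays ran from 0.571 to 0.934 with a median of 0.8, and 61 members were among the 100 highest probes of all 12 arrays and 95 among the 200 highest of all 12.

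The members that dropped farthest in order did so in PTU. JC008336, JC001894, JC008170 and JC001728 had ranks 220, 210, 200 and 190 by the PTU mean, against ranks 78, 68, 94 and 99 by the control mean. The next, JC008392, had rank 118 in PTU, against 98 in control. In T3 the lowest were JC008392 at rank 122, JC008471 at 119, JC002029 at 117, JC003606 at 116 and JC010451 at 110, against ranks 98, 91, 90, 96 and 83 in control. These last 5 lay near the edge of the set, and their T3 means differed from the control means by -0.15 to 0.09 on the log2 scale.

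No member passed the threshold in any comparison, and neither did any other probe: 0 of 100 members and 0% of the 11762 tested probes had an adjusted p under 0.05 in T3 against control, in PTU against control and in T3 against PTU (limma). At an unadjusted p under 0.05, 0 members were counted in T3 against control (5.37% of all tested probes), 4 in PTU against control (10.5%) and 4 in T3 against PTU (6.89%). The 4 in PTU against control were all lower in PTU, where 5.47% of all tested probes were counted in that direction. The 4 in T3 against PTU were all higher in T3, where 4.3% of all tested probes were. In both comparisons these were the same 4 probes, JC001894, JC008336, JC001728 and JC008170, which are 2 ID pairs, and the comparisons share the PTU arrays. A choice of members by a high control mean favours levels that are lower in PTU than in control. With 100 probes chosen on the T3 and PTU arrays, 0 were counted in PTU against control and 0 in T3 against PTU. That choice tends to leave out probes that are low in PTU.

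JC001894 lay at 6.83, 7.32, 7.76 and 6.89 on the T3 arrays, at 4.66, 4.92, 6.18 and 5.63 on the PTU arrays, and at 7.39, 6.16, 6.35 and 7.78 on the control arrays. PTU replicates 1, 2 and 4 were below all 8 other arrays, and PTU replicate 3 lay just above control replicate 2. The mean was 7.2 ± 0.433 in T3, 5.35 ± 0.691 in PTU and 6.92 ± 0.788 in control (SD, n = 4 each). T3 minus PTU was 1.85 on the log2 scale (95% interval 0.867 to 2.84, adjusted p = 0.382 from limma), and PTU minus control was -1.57 (95% interval -2.56 to -0.587, adjusted p = 0.378 from limma). Before any scaling between arrays, its intensity was 139000, 128000, 156000 and 183000 units on the T3 arrays, 61300, 72100, 75200 and 84000 units on the PTU arrays, and 164000, 129000, 170000 and 169000 units on the control arrays. On that scale all 4 PTU arrays lay below all 8 others.

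Its partner JC008336 repeated these values. It lay at 6.74, 7.18, 7.63 and 6.77 on the T3 arrays, at 4.67, 4.8, 6.06 and 5.51 on the PTU arrays, and at 7.26, 6.16, 6.14 and 7.61 on the control arrays, with all 4 PTU arrays below all others. T3 minus PTU was 1.82 (adjusted p = 0.376 from limma) and PTU minus control -1.53 (adjusted p = 0.371 from limma). With the members' own median subtracted from each array the same differences were 1.51 and -1.43 for JC008336 and 1.54 and -1.47 for JC001894.

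The second ID pair lay nearer to the other groups. JC001728 lay at 6.32, 6.8, 7.22 and 6.63 on the T3 arrays, at 4.98, 5.2, 6.17 and 5.85 on the PTU arrays, and at 6.89, 5.92, 5.77 and 7.03 on the control arrays. The PTU arrays lay below all T3 arrays and overlapped control replicates 2 and 3. T3 minus PTU was 1.19 (adjusted p = 0.526 from limma) and PTU minus control -0.85 (adjusted p = 0.47 from limma). JC008170 lay at 6.15, 6.78, 7.18 and 6.51 on the T3 arrays, at 4.86, 5.05, 6.1 and 5.74 on the PTU arrays, and at 7.02, 5.86, 5.93 and 6.96 on the control arrays. Its T3 minus PTU was 1.21 (adjusted p = 0.526 from limma) and its PTU minus control -1.0 (adjusted p = 0.41 from limma). Within PTU both ID pairs were lowest on replicates 1 and 2, the arrays with the most total signal of all 12 (104 and 103 in units of 1e+06 intensity), and the part of total signal in these values was not tested.

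In T3 against PTU most members lay to one side at the 75th percentile scaling. Quantile normalization gives every array the same distribution, so it removes a shift shared by the brightest probes and cannot test one. The median log2 difference of T3 minus PTU was 0.31 over the members and 0.03 over all tested probes. Of the members 87 were higher and 13 lower, against 6134 higher and 5628 lower of all tested probes. The members' median was 0.192 without T3 replicate 2 and 0.486 without T3 replicate 1. For 15 members, in 9 ID pairs, every T3 array lay above every PTU array (2.55% of all tested probes), and for 0 members every T3 array lay below (2.05%). The 15 include the 4 probes above, and the gap between the lowest T3 and the highest PTU array was 0.682 for JC008336, 0.643 for JC001894, 0.151 for JC001728 and 0.0448 for JC008170. JC008927, named after its values were seen, had the widest of the 11 others, 0.243, with 7.71 on its lowest T3 array and 7.46 on its highest PTU array, a log2 difference of 0.6 and an adjusted p of 0.816 from limma.

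The count of 15 changed with the arrays and the scaling. It was 60 without the 3 arrays that stood apart, where 10.4% of all tested probes met the rule, and 53 without T3 replicate 1 alone (5.23%). It was 7 with quantile normalization (2.93% of all tested probes), 4 with the members' own median subtracted (0.927%) and 2 with median scaling (1.16%). Members with every T3 array below every PTU array numbered 6 with the members' own median subtracted (5.74% of all tested probes), more than the 4 above, and 2 without the 3 arrays that stood apart (10.4%). JC001894 and JC008336 were counted with each of these scalings, and JC001728 and JC008170 with all but median scaling. With median scaling 80 members were higher and 20 lower in T3 against PTU. With quantile normalization the members' median T3 minus PTU was -0.004, with 50 higher and 50 lower, which its equal distributions largely fix in advance. The median over all tested probes was there -0.07.

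Against control, the members' differences were smaller. T3 minus control had a median of 0.25 over the members and 0.12 over all tested probes. Of the members 89 were higher and 11 lower, against 7098 higher and 4664 lower of all 11762 tested probes. With median scaling 52 members were higher and 48 lower, with a median of 0.01 over the members and -0.11 over all tested probes. The members above the median of all tested probes numbered 79 at the 75th percentile scaling and 78 with median scaling. With quantile normalization, which removes a shift shared by the brightest probes, 46 members were higher and 54 lower. The members' median was 0.039, 0.11 and 0.397 when control replicate 2, 3 or 4 was left out. PTU minus control had a median of -0.08 over the members and 0.02 over all tested probes. Of the members 37 were higher and 63 lower, against 6070 higher and 5692 lower of all tested probes. When the 75th percentile was taken over the 9872 probes that cleared the background mark on every array, 52 members were higher and 48 lower. The median was then 0.0 over the members and 0.1 over all tested probes. With either percentile 36 members lay above the median of all tested probes. The sign of the members' median turned without control replicate 1, to 0.061, and without control replicate 4, to 0.088, and this median was -0.285 without control replicate 2. T3 and control did not separate for any member: 0 members had all T3 arrays above (1.32% of all tested probes) or below (2.1%) all control arrays. For PTU and control, 0 members lay above on all arrays (2.88%) and 1 lay below (3.1%), JC008336.

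The members with the smallest p in T3 against control did not pass the threshold either. JC007865 lay at 6.72, 7.57, 7.8 and 7.41 on the T3 arrays and at 7.55, 5.62, 6.87 and 6.55 on the control arrays, a log2 difference of 0.73 (adjusted p = 0.855 from limma) that was 0.38 without control replicate 2 and 1.03 without control replicate 1. JC001609 lay at 7.4, 8.48, 8.13 and 7.9 on the T3 arrays and at 8.03, 7.18, 6.99 and 7.51 on the control arrays, a log2 difference of 0.55 (adjusted p = 0.855 from limma). The T3 and control arrays overlapped in both. Of those lower in T3, JC004009 differed by -0.25 and JC006425 by -0.19 (limma, adjusted p = 0.985 for both), and the sign for JC006425 turned without T3 replicate 1, to 0.1.

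Of the 37 members with a higher mean in PTU than in control, JC000417 and JC006859 had the smallest p. JC000417 lay at 6.83, 7.27, 7.0 and 7.07 on the PTU arrays and at 6.53, 5.92, 6.07 and 7.17 on the control arrays, a log2 difference of 0.62 (adjusted p = 0.515 from limma), and JC006859 differed by 0.51 (adjusted p = 0.601 from limma). Between T3 and PTU the members with the smallest p among those lower in T3 were the partners JC001971 and JC008413. JC001971 lay at 6.48, 6.99, 6.52 and 6.94 on the T3 arrays and at 7.06, 7.43, 6.77 and 7.23 on the PTU arrays, a log2 difference of -0.39, and JC008413 differed by -0.37, with adjusted p of 0.956 and 0.96 from limma.

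The arrays bounded the size of a change within 2-fold more often for these probes than for all tested probes. The SE of a member's log2 difference had a median of 0.327, against 0.435 over all tested probes. The 95% interval lay within a 2-fold change either way for 53 members in T3 against control, 74 in PTU against control and 39 in T3 against PTU, against 26.1%, 22.3% and 26.6% of all tested probes. For the remaining members the interval reached beyond a 2-fold change with 4 pools a group.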

How the data were processed

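Total RNA of 12 head kidney pools was labelled with Cy3 and hybridised in 1 colour, per the labels' protocols. Per the file headers, Agilent Feature Extraction 10.7.3.1 turned the scans into signals. The deposited processed signal is a background-corrected intensity on a linear scale, not scaled between arrays; the authors also deposited the median signal and local background intensity. The value table deposited by the authors holds a fraction, the processed signal over the array's sum; its columns summed to 0.99994 to 1.0001 and the formula is read from the values.

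Levels are log2 processed signal minus the array's 75th percentile, computed here from the deposited intensities. Control spots were left out, outlier spots were dropped in the fit, and the 1 saturated spot was kept. The 11762 probes well above background on at least 3 of 4 arrays of a group were tested together (limma 3.58.1, R 4.3.3, all 12 arrays, two-sided, Benjamini-Hochberg, threshold 0.05), and the fit was tested on simulated data. Shares were compared by exact permutation over all splits of the arrays (Python 3.11.15, NumPy 2.4.6), and the p-values were adjusted with SciPy 1.17.1. The number of arrays limits the precision.

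The members, the naming rule and the alternatives were chosen with earlier results of these data known. The rule names the 10 brightest members, 3 on each side of the edge, the 5 steadiest and 5 least steady, the 2 smallest p per direction and comparison, members with an outlier spot and those outside another group's 100 highest probes (up to 5 each). 0 probe IDs matched the trout gene table, so the gene lists and cell type markers were not analysed here.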

Additional observations from a re-analysis of the deposited data

Results flagged for a closer look

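Among 126 groups of 4 arrays examined, 3 had 1 array whose gap to the nearest of the others took up most of the group's range. Chance gives such a gap in about 1 in 20 groups. JC000546 lay at 6.21 on T3 replicate 1, against 6.88 to 6.94 on the other T3 arrays. JC006425 lay at 5.84 on T3 replicate 1, against 6.92 to 7.07 on the other T3 arrays. JC002472 lay at 6.31 on PTU replicate 1, against 6.54 to 6.55 on the other PTU arrays. T3 replicate 1 is an array with raised dim probes, and its part in these values was not tested.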

How the results depend on the processing

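No member was called under any of 30 alternatives in each of the 3 comparisons (90 in all), and the smallest adjusted p of a member was 0.0578 (limma with array quality weights, T3 against PTU). Members at an unadjusted p under 0.05 numbered 0 to 6 in T3 against control, 0 to 11 in PTU against control and 0 to 11 in T3 against PTU. The 6 came without control replicate 1 or without T3 replicate 1, where 663 and 497 of all probes were counted. For PTU against control the 11 came with normexp and quantile, where 1426 of all probes were counted. For T3 against PTU the 11 came with array quality weights, where 1563 were counted. The main fit tested 11762 probes, and an excess of members over all probes was not tested. Over all tested probes, up to 7 were called in PTU against control (quantile normalization), up to 10 in T3 against PTU (array weights) and 0 in T3 against control. All probes at an unadjusted p under 0.05 numbered 632 in T3 against control (283 to 976 under the alternatives), 1234 in PTU against control (617 to 1754) and 810 in T3 against PTU (409 to 1576); the lowest of the last 2 averaged ID pairs and so tested fewer rows. With the replicate number as a block 0 members were called, and the deviations of same-numbered arrays had r of -0.369 to 0.351. Such r cannot settle whether the numbers pair the samples, as shifts of whole arrays enter them and the labels do not give the aquarium. A slide block could not be fitted for PTU. With 1 array left out, the share of T3 minus control ran from 1.55 to 4.93 percentage points, and the members' median log2 difference from 0.039 to 0.397 for T3 minus control, from -0.285 to 0.088 for PTU minus control and from 0.192 to 0.486 for T3 minus PTU. The share of PTU minus control turned to 0.301 percentage points for the 200 brightest and 0.0739 for probes chosen on the T3 and PTU arrays, and ran from -2.64 to 0.742 with 1 array left out. That of T3 minus PTU was 4.48 with all spots in the denominator (exact permutation p = 0.0286) and 2.76 for the 200 brightest (exact permutation p = 0.371). It ran from 2.86 to 5.43 with 1 array left out. The members' median T3 minus PTU was -0.004 with quantile normalization and -0.012 with normexp and quantile, which both remove a shift shared by the brightest probes. The median SD was 0.211, 0.217 and 0.726 in T3 (quantile, normexp, median scaling) and 0.254, 0.242 and 0.268 in control (quantile, normexp, own median subtracted). With median scaling it was 0.766 in control and 0.297 in PTU. Members with every T3 array above every PTU array numbered 7 with quantile normalization (2.93% of all tested probes), 2 with median scaling (1.16%), 4 with the own median subtracted (0.927%, with 6 members and 5.74% below), 60 without the 3 arrays that stood apart (10.4%), and, with 1 array left out, 15 (2.89% without PTU replicate 2) to 53 (5.23% without T3 replicate 1). JC006425 ran from -0.31 to 0.1 and JC007865 from 0.38 to 1.03 with 1 array left out. Averaging ID pairs, leaving out the saturated probe and the settings of the count of T3 above PTU were chosen after seeing the data. The cause of these changes was not tested.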

Other observations

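The only saturated spot on the 12 arrays belonged to JC006843, which is no member (rank 419 by the control mean). Its intensity was 747000 units on control replicate 1, 1.38% of that array's trout-probe signal, and 26300, 17000 and 787 units on control replicates 2, 3 and 4. Its ID partner JC000401 had 5220 units on control replicate 1 and 31200, 19200 and 862 units on control replicates 2, 3 and 4, so that the partners differed on replicate 1 and lay close together on the other 3.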
